A study of Mus musculus with 24 samples.

Results

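The Tiam1 locus was taken as the annotated span of the gene with 2 kb on each side, chr16:89785111-90145769 in GRCm38 (mm10), and every cytosine of the deposited methylation table in that span was included. These were 196 of the 694379 CpG cytosines in the table, 100 on the plus strand and 96 on the minus strand. DNA came from the micro-dissected dentate gyrus of female C57BL/6JRj mice, and methylation was measured by RRBS, which sequences bisulfite-converted fragments cut by MspI at CCGG and reads an unmethylated cytosine as thymine. There were 3 groups of 8 mice. Young STD mice were 3 months old and kept in standard cages, aged STD mice were 17 months old and kept in standard cages, and aged ENR mice were also 17 months old and had spent the last 3 months in an enriched environment, a large enclosure with tunnels and toys that were rearranged. All 3 groups were of 1 strain and 1 sex, with no transgene or injection named in the labels. The dentate gyrus holds granule neurons, interneurons, neural stem cells and glia, and no marker of cell identity was measured in these DNA samples. A change in the share of a cell type and a change of methylation within a cell therefore cannot be told apart in the values below.

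Tiam1 encodes a guanine nucleotide exchange factor that switches on the small GTPase Rac1, which drives assembly of branched actin. In neurons Tiam1 acts downstream of NMDA, TrkB and EphB receptors and takes part in the growth of dendrites and spines. CpGs close to active start sites lie mostly in CpG islands and are unmethylated in most tissues, whereas CpGs in the body of a gene are usually methylated. CpGs with intermediate levels are often found at enhancers, which neurons use within long introns.

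Tiam1 is transcribed from the minus strand over 356659 bp, and 15 transcripts with 14 start sites are annotated. Positions are given as the distance downstream of the first start site, 90143769, from which the transcript Tiam1-204 starts. The transcript Tiam1-201 starts 182942 bp further on, at 89960827, and has 28 exons. The reference sequence has a CG on the stated strand at 196 of the 196 cytosines. It holds 6427 CGs in the span, of which 179 (2.79%) had a value on at least 1 strand, and every one of the 196 cytosines lay within 69 bp of a CCGG. RRBS therefore saw the locus as 54 separate runs of cytosines no more than 100 bp apart. Of these runs, 24 had at least 3 cytosines and are called clusters here. Most measured cytosines, 181, lay in introns, 7 in the large coding exon 4 of Tiam1-201, 5 in its last exon 28, and 3 in its exon 1.

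The following stretches of the GRCm38 reference carry the results described below. They are written in the direction of the gene, 5′ to 3′ on the minus strand, and capitals mark each CG at which methylation was measured. The first is the CG-dense stretch 1.0 kb downstream of the first start, chr16:90142636-90142895, with 17 CGs measured, shown because it was unmethylated in all groups.
Intron 1 of Tiam1-204, 1.0 kb: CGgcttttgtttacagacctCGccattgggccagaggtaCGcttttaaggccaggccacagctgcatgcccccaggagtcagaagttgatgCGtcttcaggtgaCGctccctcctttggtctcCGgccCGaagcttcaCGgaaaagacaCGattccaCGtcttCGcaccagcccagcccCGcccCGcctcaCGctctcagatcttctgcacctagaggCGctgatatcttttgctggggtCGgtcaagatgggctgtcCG
The others are intron sequence, shown because they hold CpGs or clusters described below with large group differences or, for the last, because the study followed it up. They are chr16:90087354-90087415, chr16:90031321-90031431, chr16:89945417-89945567, chr16:89943510-89943679 and chr16:89896426-89896529.
Intron 1 of Tiam1-204, 56.4 kb: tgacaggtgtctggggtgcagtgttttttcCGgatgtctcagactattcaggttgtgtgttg
Intron 2 of Tiam1-204, 112 kb: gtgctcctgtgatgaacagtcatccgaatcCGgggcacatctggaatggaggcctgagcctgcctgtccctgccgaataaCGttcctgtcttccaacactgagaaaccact
Intron 2 of Tiam1-201, 198 kb: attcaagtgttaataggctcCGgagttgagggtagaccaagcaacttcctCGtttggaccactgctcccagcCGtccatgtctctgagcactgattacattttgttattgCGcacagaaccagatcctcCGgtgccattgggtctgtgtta
Intron 2 of Tiam1-201, 200 kb: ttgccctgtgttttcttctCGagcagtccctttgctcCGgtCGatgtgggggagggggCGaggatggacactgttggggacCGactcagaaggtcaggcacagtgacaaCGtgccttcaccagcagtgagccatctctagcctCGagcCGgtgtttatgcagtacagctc
Intron 4 of Tiam1-201, 247 kb: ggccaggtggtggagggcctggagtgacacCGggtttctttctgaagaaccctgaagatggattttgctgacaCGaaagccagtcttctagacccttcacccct

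The table holds percentages without read numbers, so the depth behind each value is unknown beyond the minimum of 10 reads per cytosine and mouse that the authors set, and no counting interval could be given. A mouse had a value at 77 to 171 of the 196 cytosines. No cytosine of the locus had a value in all 24 mice, the most being 23 and the median 14, and 89 of the 196 had only 3 mice in at least 1 group. Of the 2942 values present, 52.9% were exactly 0 and 22.1% exactly 100. Together these were 75.1% of the values at the locus and 83.6% over the whole table. One library stood apart over the whole table, since aged STD mouse 5 had a mean of 23.6% over its cytosines, against 38.2 to 44.5% in the other 7 aged STD mice. At the Tiam1 locus its mean was 18.4%, the lowest of the 24 mice, but its mean deviation from the average of all mice at the same cytosines was −4.60 points, and 4 mice were lower.

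Methylation along the locus alternated between unmethylated start regions, methylated stretches and many patches of intermediate level. Group means were under 10% in all 3 groups at 51 cytosines (26.02%) and at least 90% in all 3 groups at 12 (6.12%). The other 133 cytosines (67.9%) had an intermediate or shifting level, against 46.0% over the whole table. Values between 20 and 80% made up 16.8% of all values at the locus and 10.1% over the whole table. This description carries no test, because cytosines on 1 read are not independent.

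**Figure D1:**
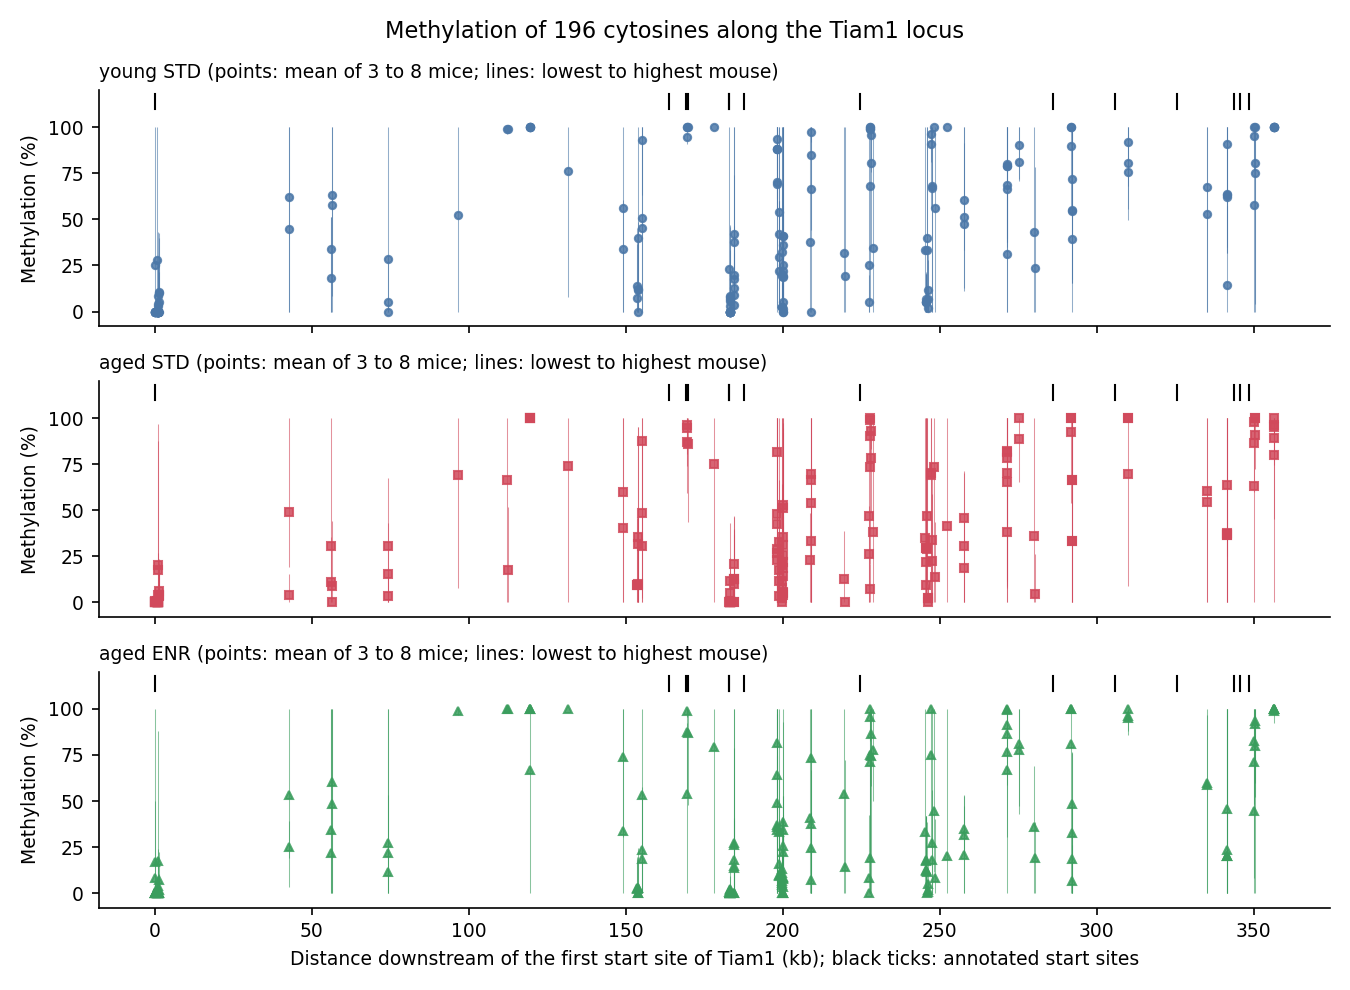
Methylation percentage (y axis) of the 196 cytosines against the distance in kb downstream of the first Tiam1 start site (x axis), 1 panel per group, with points for the group mean, lines from the lowest to the highest mouse and black ticks for annotated start sites. Most cytosines within 1 kb of the first start and of the start at 183 kb sit near 0 in all panels, with group means of up to 27.7% in the young STD panel. Those in the last exon at 356 kb sit near 100, with group means down to 80% in the aged STD panel. In between, the lines of many cytosines span most of the scale.

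At the first start site the DNA was unmethylated in all groups. The 20 cytosines within 1 kb of it averaged 2.99% in the young STD group, 0.256% in the aged STD group and 1.39% in the aged ENR group, with a median of 0 in each group. The 3 clusters that reach into this window were low in all groups. In the first stretch printed above, 20 cytosines on both strands, the mean per mouse was 0.814 ± 0.960% in the young STD group (SD, n = 5), 1.76 ± 3.19% in the aged STD group (SD, n = 6) and 1.14 ± 1.71% in aged ENR mice (SD, n = 6), and the highest single mouse was aged STD mouse 5 with 7.98%. Leaving out any 1 mouse moved the aging difference of 0.949 points between −0.295 and 1.30. The cluster 0.656 kb from the start, chr16:90143085-90143141, was 5.57%, 0, 20%, 1.11% and 1.05% methylated in the 5 young STD mice with a value. It was 0 in 6 aged STD mice and 0.833% in the seventh, and 0 in all 5 aged ENR mice. The groups overlapped at 0, and the difference between aged and young STD mice was −5.43 points (two-sided exact permutation test, p = 0.0101, smallest possible p = 0.00126; limma adjusted p = 0.938). It came from 1 of the 5 cytosines, 90143141, as the other 4 were at 0 in every mouse with a value, and it was −1.82 points without the young STD mouse that had 100% there. Closest to the start, the cluster at chr16:90143554-90143625 stood at 3.12 ± 6.25% in the young STD group (SD, n = 4), 0.0622 ± 0.108% in the aged STD group (SD, n = 3) and 3.12 ± 5.23% in aged ENR mice (SD, n = 6).

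The start of Tiam1-201 looked alike. Its 17 cytosines, chr16:89960431-89960704, averaged per mouse 3.16 ± 3.26% in the young STD group (SD, n = 8), 1.44 ± 1.06% in the aged STD group (SD, n = 5) and 0.333 ± 0.526% in aged ENR mice (SD, n = 6). The ranges of the 3 groups overlapped, and neither the aging difference of −1.72 points (two-sided exact permutation test, p = 0.279) nor the ENR difference of −1.10 points (p = 0.0563, same permutation test) passed.

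Another promoter window, around the starts at 89974699 and 89973899, was methylated instead. Its 4 cytosines, chr16:89974068-89974126, were 98.7 ± 1.18% methylated in young STD mice (SD, n = 3). In aged STD mice they were at 100%, 100%, 69.2%, 100% and 89.4%, and in aged ENR mice at 75%, 98.1%, 78.3% and 76.0%. The ENR difference of −9.86 points was within the spread between mice (two-sided exact permutation test, p = 0.278; limma adjusted p = 0.978). The aging difference was −6.96 points (permutation p = 0.732, exact), and −1.33 points without aged STD mouse 3, which had 69.2%. Among the 14 annotated starts, 5 had any measured cytosine within 1 kb, so the other 9 were not seen.

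CpG density followed these levels only in part. In windows reaching 100 bp beyond each cluster, the ratio of observed to expected CGs was at least 0.6 in 7 of the 24 clusters. These were the 4 clusters nearest to the first start, the one at the start of Tiam1-201, the one in coding exon 4, and the one in the last exon, whose mean in young STD mice was 100%. The remaining 17 clusters ranged from 6.87 to 100% in young STD mice.

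With age, the difference most often ran downwards at this locus. The aged STD mean was lower at 100 cytosines, higher at 54 and the same at 42, that is lower at 51.02% and higher at 27.6%, against 29.7% and 29.2% over the whole table, and the median difference was −0.793 points against 0 over the whole table. The study used a size threshold of 25 percentage points together with a test on reads. By size alone, as an unweighted difference of group means over 25 points, 30 of the 196 cytosines (15.3%) were lower in aged STD mice and 4 (2.04%) were higher. Of all cytosines measured, 5.01% were lower and 4.15% higher by this criterion. Cytosines of intermediate or shifting level were more frequent at the locus than over the whole table (67.9% against 46.0%). None of these shares accounts for that. Both counts depended on the setting. With group medians 12 were higher and 27 lower, and at a threshold of 20 points 10 were higher and 38 lower. At 35 points 3 were higher and 14 lower, and leaving out young STD mouse 5 gave 7 higher and 25 lower. The 30 cytosines fell into 18 of the 54 runs, and neighbours within a run are not independent. Of the 30, 29 were among the 155 cytosines outside promoters (18.7%) and 1 among the 41 within 1 kb of a start site (2.44%). The median young STD group mean of these 41 was 0, and a cytosine near 0 cannot fall by 25 points. Among cytosines with at least 5 mice in each group, 6 of 71 were lower (8.45%) and 1 was higher, against 2.96% and 2.19% of all cytosines with such coverage. The size criterion takes no account of the spread between mice. With limma, a moderated test on the mice as replicates that was fitted to the whole table, no Tiam1 cytosine had an adjusted p under 0.05 (Benjamini-Hochberg, smallest 0.304). An unadjusted p under 0.05 was reached at 7 of the 196 cytosines (3.57%), against 2.23% over the table, where 0.0049% passed after adjustment.

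**Figure D2:**
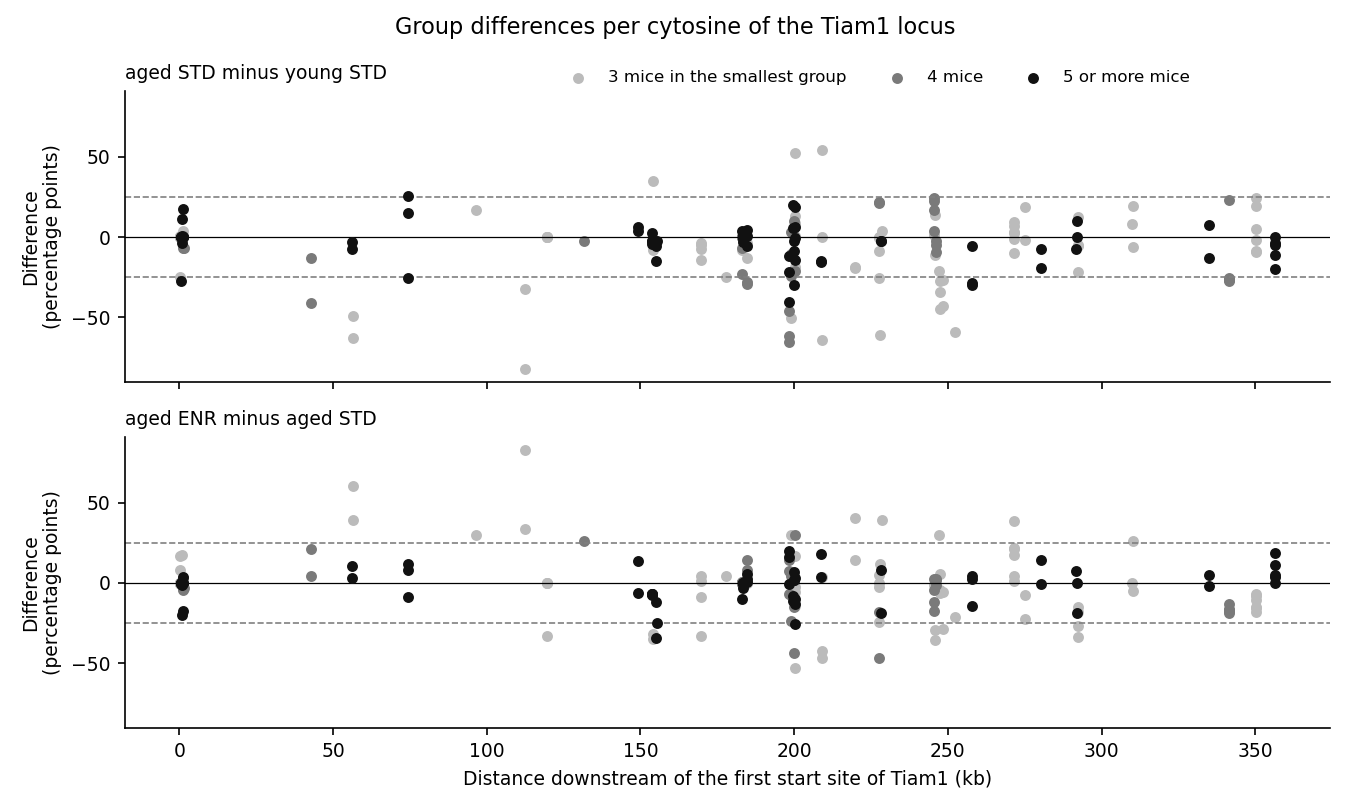
Difference of group means in percentage points (y axis) for each of the 196 cytosines against distance from the first start site in kb (x axis), for aged STD minus young STD (top) and aged ENR minus aged STD (bottom), shaded by the number of mice in the smallest group, with dashed lines at 25 points. Below the lower dashed line of the top panel lie 30 cytosines, above the upper one 4, and the extreme points are mostly light, with 3 mice in a group.

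The aged ENR and aged STD means, which share the aged STD mice with the aging comparison, differed in both directions. Aged ENR mice were lower by over 25 points at 17 cytosines (8.67%) and higher at 13 (6.63%), against 4.51% and 3.82% over the whole table, and the median difference was 0. The count lower fell to 9 without young STD mouse 6, with 179 cytosines left that had 3 mice in each group, and to 11 without aged STD mouse 3 or 8, with 153 and 172 left. Where each group had at least 5 mice, 3 cytosines were lower and none of 71 was higher, against 2.62% and 2.1% over the table. No Tiam1 cytosine passed limma for ENR (Benjamini-Hochberg, smallest adjusted p = 0.53), 4 had an unadjusted p under 0.05 (2.04%, against 1.9% over the table), and 0.00446% of the table passed after adjustment. Aged ENR and young STD mice differed by over 25 points at 36 cytosines of the locus (18.4%), against 8.43% of the table. Without aged STD mouse 5, 179 cytosines kept 3 mice in each group, of which 24 were lower and 5 higher in aged STD than in young STD mice, and 23 were lower and 12 higher in aged ENR than in aged STD mice.

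Averaged over the locus, each mouse was described by its mean deviation, that is its value minus the mean of all mice at that cytosine, over all cytosines it had. Young STD mice ranged from −0.381 to 8.07 points (median 4.70), aged STD mice from −7.07 to 3.24 (median −1.84), and aged ENR mice from −6.21 to 0.0306 (median −3.19). The groups overlapped. The group means were 4.18 ± 3.07, −1.82 ± 3.85 and −3.12 ± 2.28 points (SD, n = 8 each), and aged ENR mice thus stood no closer to young STD mice than aged STD mice did on this measure. The same mean over all CpGs of the table was 0.387 ± 0.582, −0.0387 ± 1.02 and −0.391 ± 0.285 points. Outside promoters the plain mean was 45.8 ± 5.22% in the young STD group, 36.9 ± 8.76% in the aged STD group and 37.1 ± 2.95% in the aged ENR group. These are descriptions over different cytosines in each mouse and carry no test.

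**Figure D3:**
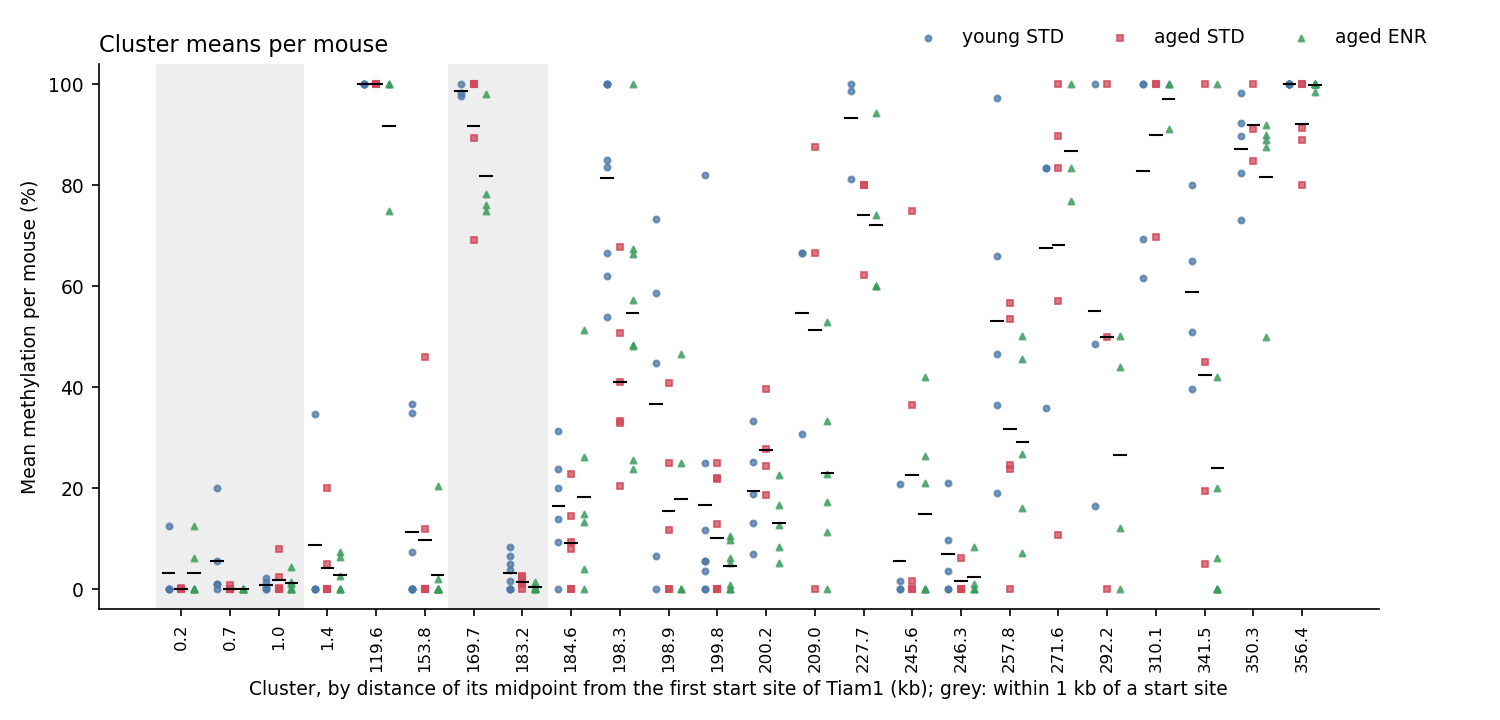
Mean methylation per mouse in percent (y axis) for the 24 clusters in order of distance from the first start site in kb (x axis), with points for mice, black lines for group means and grey bands for clusters within 1 kb of a start site. In the clusters within 1 kb of the first start and of the start at 183 kb no mouse exceeds 20%, and at 198.3 kb most aged STD mice, at 20.5 to 67.8%, lie below most young STD mice, at 53.8 to 100%.

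The clusters gave 24 values per mouse that pool neighbouring cytosines. No cluster passed limma with adjustment over all 76135 clusters of the table, for aging (smallest adjusted p = 0.701) or for ENR (smallest adjusted p = 0.978). An unadjusted p under 0.05 was found at 2 clusters for aging (8.33%, against 4.63% of all clusters) and at 2 for ENR (8.33%, against 3.91%). After adjustment 0.00919% of all clusters passed for aging and 0.00263% for ENR.

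The cluster with the largest aging difference lay in intron 2 of Tiam1-201, 198 kb downstream of the first start and 10560 bp from the nearest annotated start, chr16:89945437-89945547. Its mean over 6 cytosines lay between 53.8 and 100% in the 8 young STD mice (median 84.3%). It lay between 20.5 and 67.8% in the 6 aged STD mice with a value (median 37.2%), and between 23.8 and 100% in the 8 aged ENR mice (median 52.8%). Aged STD mice lay lower, with an overlap between 53.8 and 67.8%, and aged ENR mice spanned nearly the whole range of both. The aging difference was −40.4 points (81.4 ± 18.6% against 41.0 ± 16.5%), larger than the spread between mice when this cluster is taken alone (two-sided exact permutation test, p = 0.00266, smallest possible p = 0.000333) but chosen as the largest of 24 and not past the threshold over all clusters (limma p = 0.00136, adjusted p = 0.701). It stayed between −45.7 and −36.3 points when any 1 mouse was left out. The ENR difference was 13.6 points (exact permutation p = 0.274).

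Within this cluster 3 minus-strand cytosines lay closer together than the length of a read, and all 3 were lower by over 25 points in aged STD mice. At 89945495 the young STD mice had 100%, 53.8%, 100% and 100%, the aged STD mice 0, 34.8%, 48.1%, 31.8% and 0, and the aged ENR mice 47.7%, 0, 97.4%, 0, 21.5% and 55.2%. No aged STD mouse reached the lowest young STD mouse, and aged ENR mice spread over both ranges. The aging difference was −65.5 points (exact permutation p = 0.00794, the smallest possible; limma p = 0.00572, adjusted p = 1). At 89945517, 22 bases on, the aging difference was −61.5 points (exact permutation p = 0.0556), and aged STD mouse 6, at 31.8% on the first cytosine, had 100%. Both 89945495 and 89945517 were picked by their limma p, so their p-values describe them and support nothing. On the plus strand of the first CpG, at 89945494, the aging difference was −40.3 points, with young STD mice from 1.79 to 100%.

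The other clusters with large aging differences were in introns 4 and 2 of Tiam1-201. At chr16:89885902-89885969, 258 kb downstream, the means were 53.1 ± 29.98% in the young STD group, 31.7 ± 23.5% in the aged STD group and 29.1 ± 18.5% in the aged ENR group (SD, n = 5 each), and the aging difference of −21.4 points was within the spread (exact permutation p = 0.246). At chr16:89944879-89944941, 199 kb downstream, they were 36.6 ± 32.2% (n = 5), 15.5 ± 17.5% (n = 5) and 17.9 ± 22.5% (n = 4), with an aging difference of −21.1 points (exact permutation p = 0.254). When any 1 mouse was left out, these 2 aging differences ran from −29.9 to −10.4 and from −30.3 to −12.0 points. In both clusters the aged ENR mean lay beside the aged STD mean, with ENR differences of −2.56 and 2.40 points. A smaller difference, named after its values were seen, had no overlap between young and aged STD mice. At chr16:89915994-89916053, 228 kb downstream in intron 2, the young STD mice had 100%, 98.7% and 81.2%, the aged STD mice 80%, 80% and 62.2%, and the aged ENR mice 60.0%, 60.0%, 94.3% and 74.1% (aging difference −19.2 points, limma adjusted p = 0.938).

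The clusters with the largest ENR differences had 3 mice in at least 1 of the groups compared. At chr16:89934766-89934800, 209 kb downstream in intron 2 of Tiam1-201, the aged STD mice had 66.7%, 87.5% and 0, and the 6 aged ENR mice ranged from 0 to 52.8%. The difference was −28.5 points (exact permutation p = 0.238), and it lay between −54.2 and −10.4 points when any 1 mouse was left out. The lowest aged STD value was that of mouse 5. At chr16:89851531-89851590, in intron 11, aged STD mice had 50%, 0 and 100% and aged ENR mice 43.9%, 12.2%, 0 and 50.1%, a difference of −23.4 points (exact permutation p = 0.571) that lay between −48.4 and 1.57 points when any 1 mouse was left out, the latter without aged STD mouse 8. At chr16:89872193-89872245, in intron 6, the aged ENR mean was 86.7 ± 11.9% (n = 3) and the aged STD mean 68.2 ± 35.9% (n = 5), a difference of 18.6 points (exact permutation p = 0.536) that fell to 4.17 points without aged STD mouse 7, which had 10.6%.

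Clusters whose unadjusted limma p was under 0.05 were named after their values had been seen. For aging they were the 198 kb cluster above and the last exon of the gene. In that exon, at chr16:89787370-89787396, 6 young STD mice were at 100%, aged STD mice at 80%, 91.3%, 100%, 100% and 89.1%, and 7 aged ENR mice at 98.4 to 100%. The differences were small and ran in opposite directions, −7.93 points for aging and 7.70 for ENR (limma adjusted p = 0.938 and 0.978). The aged STD group, shared by both comparisons, was the only one with mice below 98%. For ENR the other was the cluster at 200 kb, chr16:89943530-89943659, with 19.5 ± 10.3% in the young STD group (SD, n = 5), 27.6 ± 8.89% in the aged STD group (SD, n = 4) and 13.1 ± 6.88% in aged ENR mice (SD, n = 5), a difference of −14.6 points (limma adjusted p = 0.978).

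Cytosines whose aging and ENR differences both exceeded 25 points in opposite directions, by size alone and with no test of each difference, numbered 8 of 196 (4.08%), against 3.49% over the whole table and 11.2% and 7.02% at the Tshz2 and Cux2 loci. Both differences contain the aged STD mean, so that an aged STD group of few mice that happens to lie low or high gives both at once. The count was 14 with group medians in place of means, 5 with both strands of a CG averaged, and 5 without aged STD mouse 3 or 8 or aged ENR mouse 6 or 7. Each of the 8 cytosines had only 3 mice in at least 1 group. They lay in 6 runs, 5 were low and 3 high in aged STD mice, and in all 8 the aged ENR mean was within 25 points of the young STD mean. Among the 71 cytosines with at least 5 mice in each group there was none, against 1.64% over the table. The members nearest to the threshold were 90031401 and 89944941, with smaller differences of 32.6 and 30 points in size, and the nearest outside were 89916176, the CpG followed up by the study and 89943641, with smaller differences of 22.02, 21.2 and 21.2 points. Since these cytosines were picked by their differences, the p-values given for them describe them and support nothing.

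**Figure D4:**
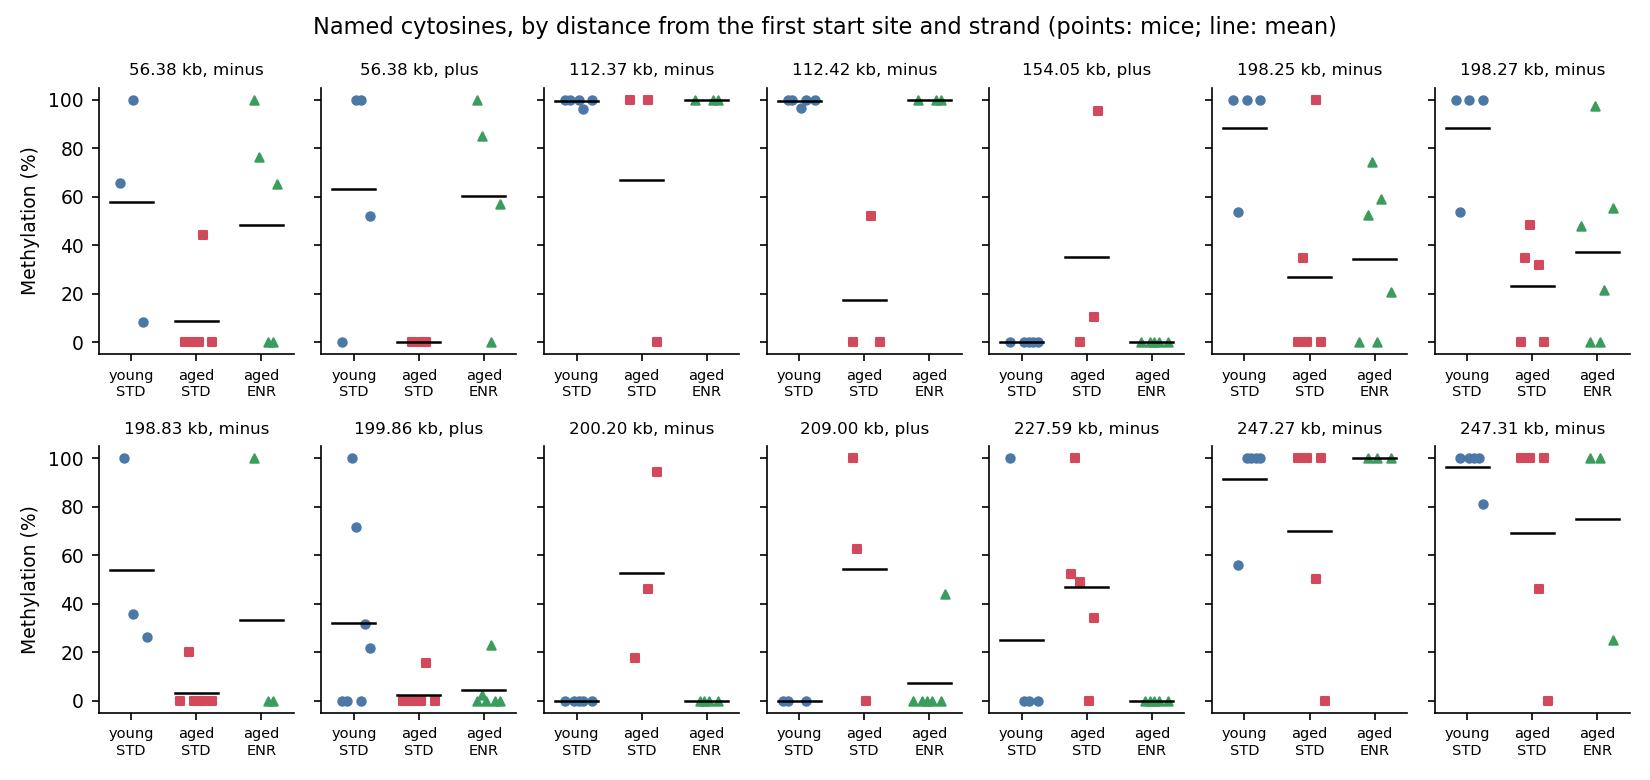
Methylation percentage per mouse (y axis) at 14 named cytosines, each in a panel titled with its distance from the first start site in kb and its strand, with points for mice and a black line for the group mean. At most of them single mice sit at 0 or 100 within 1 group, and in the panel at 112.42 kb the 3 aged STD mice lie at 0, 0 and 52.0% with the other groups at 96.7 to 100%.

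The largest such difference was at 90031351 on the minus strand, in intron 2 of Tiam1-204, 112 kb downstream. Young STD mice had 100%, 100%, 96.7%, 100% and 100%, aged STD mice 0, 52.0% and 0, and aged ENR mice 100%, 100% and 100%. The aged STD mice did not overlap with either other group. The differences of −82.0 points (limma adjusted p = 0.304) and 82.7 points (limma adjusted p = 0.53) were the ones with the smallest p at the locus. The exact permutation test gave its smallest possible p in both, 0.0179 for aging and 0.1 for ENR. At 90031401, 50 bases away on the same strand and in the same printed stretch, the same 3 aged STD mice had 100%, 100% and 0. There the differences of −32.6 and 33.3 points came from 1 mouse, without which the aging difference was 0.769 and the ENR difference 0.

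At the single CG of the 56.4 kb stretch both strands met the criterion. On the plus strand, at 90087384, young STD mice had 0, 100%, 100% and 52.2%, the 3 aged STD mice 0, and aged ENR mice 100%, 85%, 0 and 56.8%. On the minus strand, at 90087385, young STD mice had 65.5%, 100% and 8.33%, aged STD mice 0, 0, 0, 44.0% and 0, and aged ENR mice 100%, 76.3%, 0, 0 and 65.3%. Most aged STD mice were at 0 and the other groups spread from low to full methylation. The aging differences were −63.0 and −49.2 points (exact permutation p = 0.143 and 0.0357) and the ENR differences 60.5 and 39.5 points (exact permutation p = 0.143 and 0.167).

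The remaining 4 lay in introns. At 89943570 the 5 young STD and 4 aged ENR mice had 0 and the aged STD mice 17.4%, 46.2% and 94.4%, so that the aged STD mice did not overlap with the others (differences of 52.7 and −52.7 points, exact permutation p = 0.0179 and 0.0286, each the smallest possible; limma adjusted p = 1). On a log2(percentage + 1) scale this cytosine passed limma, with an adjusted p of 0.00222 for aging and 0.00294 for ENR, where 0.0134% and 0.0124% of the table passed. The plus-strand cytosine of the same CG, at 89943569, went the other way for aging, with means of 19.0% in the young STD group, 5% in the aged STD group and 8.20% in the aged ENR group. At 89934766 aged STD mice had 100%, 62.5% and, in mouse 5, 0, and all others were at 0 except 1 aged ENR mouse with 43.9%. Without mouse 5 only 2 aged STD mice remained there, and the differences were 81.2 and −73.9 points. At 89989723 the values other than 0 were 10.3% and 95.2% in 2 of 3 aged STD mice. At 89944941, 1 aged STD mouse of 6 had 20% and the others 0, while young STD mice had 100%, 35.7% and 26.3% and aged ENR mice 100%, 0 and 0.

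The CpG that the study followed up lay in intron 4 of Tiam1-201, 247.27 kb downstream. It belongs to the only CCGG of the printed 247 kb stretch, chr16:89896497-89896500. The study's primers for targeted bisulfite sequencing matched the converted plus strand at chr16:89896369-89896735, a stretch of 367 bp with 7 CGs, whereas both RRBS cytosines in it were read on the minus strand. In RRBS, young STD mice had 56.0%, 100%, 100%, 100% and 100%, aged STD mice 100%, 100%, 50%, 100% and 0, and aged ENR mice 100%, 100% and 100%. Full methylation was found in mice of every group, and 2 of 5 aged STD mice were at 50% or below. The means were 91.2 ± 19.7% (SD, n = 5), 70.0 ± 44.7% (SD, n = 5) and 100% (n = 3). Between aged and young STD mice the means differed by −21.2 points, and between aged ENR and aged STD mice by 30 points. Both were smaller than the SD among aged STD mice, and limma gave an adjusted p of 1 for each. Exact permutation (two-sided) returned p = 0.444 for aging and p = 0.464 for ENR. Most values were tied at 100%, so no split of these mice could bring either p under 0.05, and this test cannot decide. Both differences leaned on aged STD mouse 8, which had 0, and without it they were −3.70 and 12.5 points. Group medians were 100% in all 3 groups, with a difference of 0. At its neighbour 43 bases away on the same strand, 89896456, the means were 96.2 ± 8.39%, 69.2 ± 45.2% and 75 ± 43.3%, so the aging difference was −27.1 and the ENR difference 5.83 points. When any 1 mouse was left out, the aging difference ran from −34.8 to −9.79 and the ENR difference from −11.5 to 30.8 points. There the aged ENR mouse 8 had 25%, although it had 100% at the followed-up CpG.

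Intron 4 around this CpG was lower with age at several other cytosines. Of its 13 cytosines, 8 were lower by over 25 points in aged STD mice and none was higher, against 5.01% and 4.15% over the whole table, and 1 was lower and 1 higher in aged ENR mice. The 8 include neighbours within a run, which are not independent, and most of them had only 3 mice in at least 1 group. One of the 8 was 89891334, with 100% in the 3 young STD mice, 41.2 ± 45.5% in 5 aged STD mice and 20.3 ± 39.4% in 6 aged ENR mice. At this cytosine the aged ENR mean lay further from the young STD mean than the aged STD mean did. In the long intron 2, 9 of 44 cytosines were lower and 2 higher with aging, against the same 5.01% and 4.15% over the whole table. In coding exon 4 itself, 5′ of the intron, the cluster at chr16:89898149-89898171 was low, with 5.60 ± 10.1% in the young STD group (SD, n = 4), 22.6 ± 33.2% in the aged STD group (SD, n = 5) and 14.9 ± 17.7% in aged ENR mice (SD, n = 6). None of these differences passed limma.

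Among the other cytosines ranked by limma p, 89943909 in intron 2 of Tiam1-201 was the best covered, with at least 6 mice in each group. Young STD mice ranged from 0 to 100% with a mean of 32.1 ± 39.5% (SD, n = 7), 6 of 7 aged STD mice had 0 and 1 had 15.4%, and aged ENR mice ranged from 0 to 22.8%. The aging difference was −29.9 points (exact permutation p = 0.0699). At 89916176 aged ENR mice were at 0 in 5 of 5 and aged STD mice at 52.2%, 100%, 48.7%, 0 and 34.2%, and the ENR difference was −47.0 points (exact permutation p = 0.0476; limma adjusted p = 1), or −58.8 points without aged STD mouse 5. Young STD mice there had 100% in 1 and 0 in 3 mice. Both cytosines were picked by their limma p, so the p-values given for them describe them and support nothing.

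Both strands were measured at 17 CGs of the locus. A methylated CG usually carries the mark on both strands, so both strands of a CG were compared within each mouse. In 160 pairs of strand values from the same mouse, 42 (26.2%) differed by over 25 points, against 14.2% of the pairs over the whole table. Leaving out pairs with both strands at 0 or both at 100, 42 of 72 pairs (58.3%) differed by over 25 points at the locus and 51.6% over the table, and the median difference at the locus was 32.5 points. Cytosines on 1 strand and within 50 bp of each other differed by over 25 points in 16.1% of 1728 pairs in the same mouse, against 11.2% over the table. Differences over 25 points thus also occurred between the strands of a single CG in a single mouse. At 89945494 and 89945495, in the cluster with the largest aging difference, the strands differed by over 25 points in 8 of 12 mice. In the start regions both strands were at 0 in every mouse with a pair at 89960642 and 90142703, whereas they differed by over 25 points in 2 of 9 mice at 89960571 and in 1 of 8 at 90142710.

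**Figure D5:**
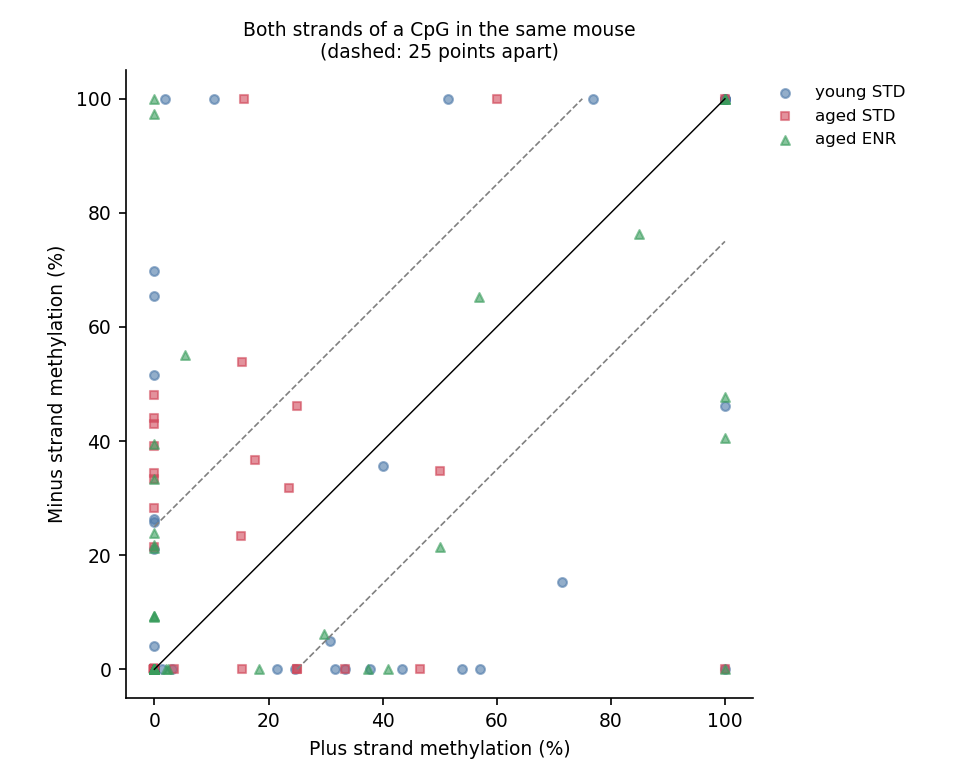
Methylation percentage of the minus strand (y axis) against the plus strand (x axis) of the same CG in the same mouse, for 17 CGs and 160 pairs, coloured by group, with a solid line for equal values and dashed lines 25 points to either side. Outside the corners most points lie along the axes, where 1 strand is at or near 0 or 100, and 42 pairs of all 3 groups lie outside the dashed lines.

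The genes around Rac1 signalling were described by the same counts, from a list of 44 other exchange factors, GTPases, inhibitors, effectors and upstream receptors. Of these, 43 had measured cytosines, 2804 in all. Aged STD mice were lower by over 25 points at 6.31% of them and higher at 4.42%, aged ENR mice were lower than aged STD mice at 5.39% and higher at 4.07%, and 3.96% had opposite differences. Over the whole table these shares were 5.01%, 4.15%, 4.51%, 3.82% and 3.49%. No cytosine of these genes passed limma for aging or for ENR. The closest relative of Tiam1, the exchange factor Tiam2, had 3 of 64 cytosines lower and 2 higher with aging. Kalrn and Trio, large exchange factors for Rac1 and RhoG in neurons, had 21 of 154 and 11 of 106 lower and 9 and 8 higher, and Dock4, an exchange factor of another family, had 4 of 114 lower and 1 higher. The receptor gene Ephb2 had 14 of 160 lower and 12 higher.

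By the mean deviation per mouse over the 24 mice, the genes most like Tiam1 among 3449 protein-coding genes with at least 50 cytosines were Dlec1 (Pearson r = 0.767, Spearman rho = 0.748), Dym (r = 0.725, rho = 0.617) and Neb (r = 0.704, rho = 0.695). The median gene had r = 0.0826. All genes share the library of a mouse, and the profile of Tiam1 also followed the mean deviation over all CpGs of the table (r = 0.513), so these values are given as a description.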

How the data were processed

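RRBS libraries of 24 dentate gyri were made with the Premium RRBS Kit and read as single 75 bp ends. The authors deposited a table of percentages, the share of reads that were methylated at a CpG cytosine in a mouse, with both strands kept separate. They kept cytosines read at least 10 times, not above the 99.9th percentile of coverage, and with values in at least 3 mice per group. The submitters' processing notes name Trim Galore 0.4.0, cutadapt 1.8.1, Bismark 0.16.1, methylKit 1.5.2 and mm10, and the methods of the study name later versions of Trim Galore and Bismark. Read numbers were not used here, so the read-level test of the study was not run.

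Group means over mice with a value were compared by size and with limma 3.58.1 in R 4.3.3 (1 group-means model of the percentages of all 694379 cytosines, or of 76135 cluster means, Benjamini-Hochberg adjustment, threshold 0.05). A cluster is a run of at least 3 cytosines with gaps of at most 100 bp, and a mouse counted if it had 50% of them. For single cytosines and clusters the difference of means was also put to a two-sided exact permutation test. Per the methods of the study, enriched mice shared an enclosure and standard mice shared cages, so mice of a group may not be independent, and p-values measure only the spread between them. Cytosines and clusters were named by rule: the followed-up CpG and its neighbours within 50 bp, clusters within 1 kb of a start, the 3 largest cluster differences per comparison, all opposite differences, and the 5 smallest limma p among differences over 25 points. The members, gene list and rules were chosen with earlier results of these data known. A locus mean over cytosines seen in every mouse was planned but could not be computed, as there were none, and deviations were used. Annotation was GENCODE M21, and sequences came from the RefSeq GRCm38.p6 assembly. Scripts were tested on simulated data, where limma found 129 of 200 changed cytosines for aging and 132 for ENR. It made 78 and 57 false calls among 694179 unchanged cytosines. Of 200 changed clusters it found 178 in each comparison, with 23 and 21 false calls. It thus both missed changes and made false calls there. Python 3.11.15 with numpy 2.4.6, pandas 2.3.3, scipy 1.17.1 and matplotlib 3.10.9 was used. Alternatives were other thresholds, numbers of mice, medians, averaged strands, a log2 scale, cluster gaps, a replicate block and leaving out each mouse.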

Additional observations from a re-analysis of the deposited data

Results flagged for a closer look

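A value was picked out when the highest or lowest mouse of a group of 4 to 10 stood apart from the others by Dixon's criterion at the 95% level. This happened in 20 places among 56 groups with any spread. The criterion would flag about 1 in 20 by chance among untied values, but in many of these groups the other mice were tied at 0 or 100. A single mouse that differs from tied others is always flagged, so the number of flags cannot show an excess over chance.

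At single cytosines, the mice picked out in the young STD group had 81.25% at 89896456, 56.0% at the CpG followed up by the study, 100% at 89916176, 53.8% at both 89945495 and 89945517 (the same mouse), 96.7% at 90031351 and 96.2% at 90031401. In the aged STD group they had 15.4% at 89943909, 20% at 89944941 and 44.0% at 90087385, and in the aged ENR group 43.9% at 89934766 and 22.8% at 89943909.

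Among cluster means, single mice stood apart at low levels near the start sites. They were 7.98% in 1 aged STD mouse and 4.39% in 1 aged ENR mouse at chr16:90142636-90142895, 20% in 1 young STD mouse and 0.833% in 1 aged STD mouse at chr16:90143085-90143141, 12.5% in young STD mice at chr16:90143554-90143625 and 1.35% in aged ENR mice at chr16:89960431-89960704. At the methylated cluster chr16:89974068-89974126, 1 aged ENR mouse with 98.1% lay above the other 3. Over all CpGs of the table, aged STD mouse 5 had a mean deviation of −2.42 points, apart from the other 7 aged STD mice, and its part in the locus counts was tested only by leaving it out.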

How the results depend on the processing

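Depth is unknown, and 3 mice in a group limit most large differences. With at least 5 mice per group (71 cytosines left), 6 cytosines were lower and 1 higher with aging, 3 lower and 0 higher with ENR, and 0 opposite, and fewer cytosines were tested by construction. A threshold of 20 points gave 10 higher with aging, and 35 points gave 14 lower with aging, 7 lower and 6 higher with ENR. Group medians gave 12 higher with aging and 14 opposite, and averaged strands 5 opposite. The cause was not tested. On log2(percentage + 1), limma called 1 cytosine for aging and 1 for ENR, both times 89943570, where all values outside aged STD mice were 0. Medians moved both differences at the followed-up CpG to 0. With a replicate block, limma called 0 cytosines and 0 clusters of the locus in each comparison (smallest adjusted p = 0.0808). The replicate numbers belong to different mice and did not pair them: same-numbered mice of different groups correlated at −0.0405 to 0.0205 over 8628 cytosines seen in all mice, and 0 of 24 correlated best with its own number.

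Leaving out each mouse in turn gave 22 to 32 cytosines lower and 3 to 7 higher with aging, 9 to 23 lower and 9 to 14 higher with ENR, and 5 to 11 opposite. The count lower with ENR was 9 without young STD mouse 6 and 11 without aged STD mouse 3 or 8, the opposite count was 5 without aged STD mouse 3 or 8 or aged ENR mouse 6 or 7, and the count higher with aging was 7 without young STD mouse 5. Cytosines that fall below 3 mice drop out of these counts. limma called 0 to 0 cytosines and 0 to 0 clusters for aging and for ENR. At the followed-up CpG the aging difference ranged from −30.0 to −3.70 and the ENR difference from 12.5 to 37.5 points, and leaving out any of the 3 aged ENR mice with a value there left too few. The locus mean differed by −6.00 (aging) and −1.31 points (ENR), and by −5.56 and −1.79 without aged STD mouse 5.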
